A study of Homo sapiens with 24 samples.

Results

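The 10 transcripts described here encode enzymes that make asparagine, serine and the folate-bound one-carbon units of the mitochondrion, with 3 enzymes of neighbouring routes to proline, phosphoenolpyruvate and cysteine. They are ASNS, PHGDH, PSAT1, PSPH, SHMT2, MTHFD2, ALDH1L2, PYCR1, PCK2 and CTH. They were chosen by name, with earlier results of these data known, from the 28907 gene symbols of the deposited expression table. All 10 were found in it. Counts of them set beside the share of all genes are therefore descriptions. RNA was sequenced from A2780 and ES2, both human ovarian cancer cell lines, in 8 groups of 3 libraries, as the sample titles give them. Each line had a control siRNA group (siCtrl), a group with an siRNA against the nuclear kinase VRK1 (siVRK1), a solvent group (DMSO) and a group treated with luteolin, a plant flavone. No group was left without siRNA or solvent, so siCtrl served as the reference for siVRK1 and DMSO as the reference for luteolin. Not given in the sources used here are the siRNA sequences, the luteolin dose and the treatment times. The labels do not state whether the replicates are separate cultures, and every p-value measures only the spread between these libraries.

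Serine is built from a glycolytic intermediate in 3 steps by PHGDH, PSAT1 and PSPH. SHMT2 then splits serine into glycine and a one-carbon unit inside the mitochondrion, where MTHFD2 and ALDH1L2 oxidise that unit for nucleotide synthesis and for making NADPH. ASNS turns aspartate into asparagine, PYCR1 carries out the last step of proline synthesis, PCK2 makes phosphoenolpyruvate in the mitochondrion and CTH releases cysteine from cystathionine. Many of these genes are known targets of ATF4, a transcription factor whose protein is made when amino acids run short or when proteins misfold, and which is regulated to a large extent at translation.

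Levels are given in TPM, a length-corrected share of all transcripts in a library scaled to the same total everywhere, so the levels of different genes can be set side by side. In bulk RNA of this kind, fewer cells expressing a gene and less RNA per cell cannot be told apart. Differences are log2 fold changes of TPM + 1 with their standard error (SE), tested with limma, on both sides, and p-values were adjusted by Benjamini-Hochberg over every gene in the fit, with 0.05 as the threshold. The added 1 makes the fold change of a gene with a low level smaller than the ratio of its TPM values.

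In the table, 2 columns of the ES2 siVRK1 group carry the same name, and these libraries are called siVRK1 a and b. Each library had 11792 to 12862 genes at 1 TPM or more. VRK1 itself was at 53.6 to 55.2 TPM with siCtrl and 7.98 to 11.3 TPM with siVRK1 in A2780, and at 62.2 to 66.2 against 2.92 to 4.20 TPM in ES2. Of 9 ovarian and epithelial markers, only EPCAM, KRT8 and KRT18 reached 1 TPM in any A2780 library, where the summed level of all 9 was 5.50 to 12.1 TPM. In ES2, PAX8, WT1, KRT7, KRT8 and KRT18 did so, with a summed level of 636 to 993 TPM. Leukocyte markers summed to at most 2.17 TPM in any library.

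The control cells of the 2 lines had very different stocks of these transcripts. Summed over the 10 enzymes, A2780 held 2141 ± 41.6 TPM with siCtrl (SD, n = 3) and 2220 ± 104 TPM with DMSO, while ES2 held 621 ± 6.26 and 714 ± 4.57 TPM. Taking the siCtrl and DMSO groups together, 8 of the 10 enzymes were called lower in ES2 and CTH was called higher. PYCR1 was higher too, but it passed the 1 TPM filter only through ES2 and A2780 luteolin libraries. It is therefore described without a test and not counted. In that comparison 83.7% of the 14328 genes tested were called, 49.4% lower in ES2 and 34.3% higher, and the median gene was 0.17 lower on the log2 scale, so a difference between the lines was common among all genes.

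ASNS, the enzyme of asparagine synthesis, was at 218, 215 and 214 TPM in the A2780 siCtrl libraries and at 238, 234 and 247 TPM with DMSO. In ES2 it was at 14.1, 13.2 and 14.1 TPM with siCtrl and at 18.0, 20.6 and 18.7 TPM with DMSO. Every A2780 control library was thus far above every ES2 control library. The log2 difference of ES2 from A2780 was -3.73 ± 0.04 (limma, adjusted p = 9.38e-25), the largest downward difference among the 10.

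The 3 serine synthesis enzymes were all lower in ES2. PSAT1, which transfers the amino group in the middle step, was at 631 to 744 TPM in the 6 A2780 control libraries and at 61.7 to 72.7 TPM in the 6 ES2 ones, a log2 difference of -3.32. PHGDH, the first enzyme of the route, was at 467 to 572 TPM in A2780. In ES2 its level depended on which control was used: it was at 86.6, 94.0 and 80.9 TPM with siCtrl and at 219, 216 and 223 TPM with DMSO. These sets of ES2 controls did not overlap for PHGDH, yet both lay below all A2780 controls, and the log2 difference of the lines was -1.91. PSPH, which removes the phosphate in the last step, differed less, at -1.47.

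Of the mitochondrial one-carbon enzymes, ALDH1L2 stood furthest apart, at 18.1 to 29.9 TPM in A2780 controls against 1.26 to 2.50 TPM in ES2 controls, a log2 difference of -3.13. For MTHFD2 the log2 difference was -1.41, and for SHMT2 it was -0.47, the smallest of the 8 downward differences. PCK2, the phosphoenolpyruvate enzyme, was among the larger ones, at -3.06.

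PYCR1 ran the other way. It was listed at 0.522, 0.286 and 0.900 TPM in the A2780 siCtrl libraries and at 0.189, 0.218 and 0.565 TPM with DMSO, against 102, 109 and 111 TPM and 100, 101 and 99.9 TPM in ES2. The proline enzyme was therefore close to undetected in A2780 and among the abundant members in ES2, with a log2 difference of 6.20 ± 0.09. No A2780 control library reached 1 TPM, so no test of it is given. Its relative PYCR3 was at a mean of 22.6 TPM in the A2780 and 24.5 TPM in the ES2 controls. CTH was higher in ES2 by 0.47 (limma, adjusted p = 0.000347), but its control libraries overlapped between the lines.

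**Figure D1:**
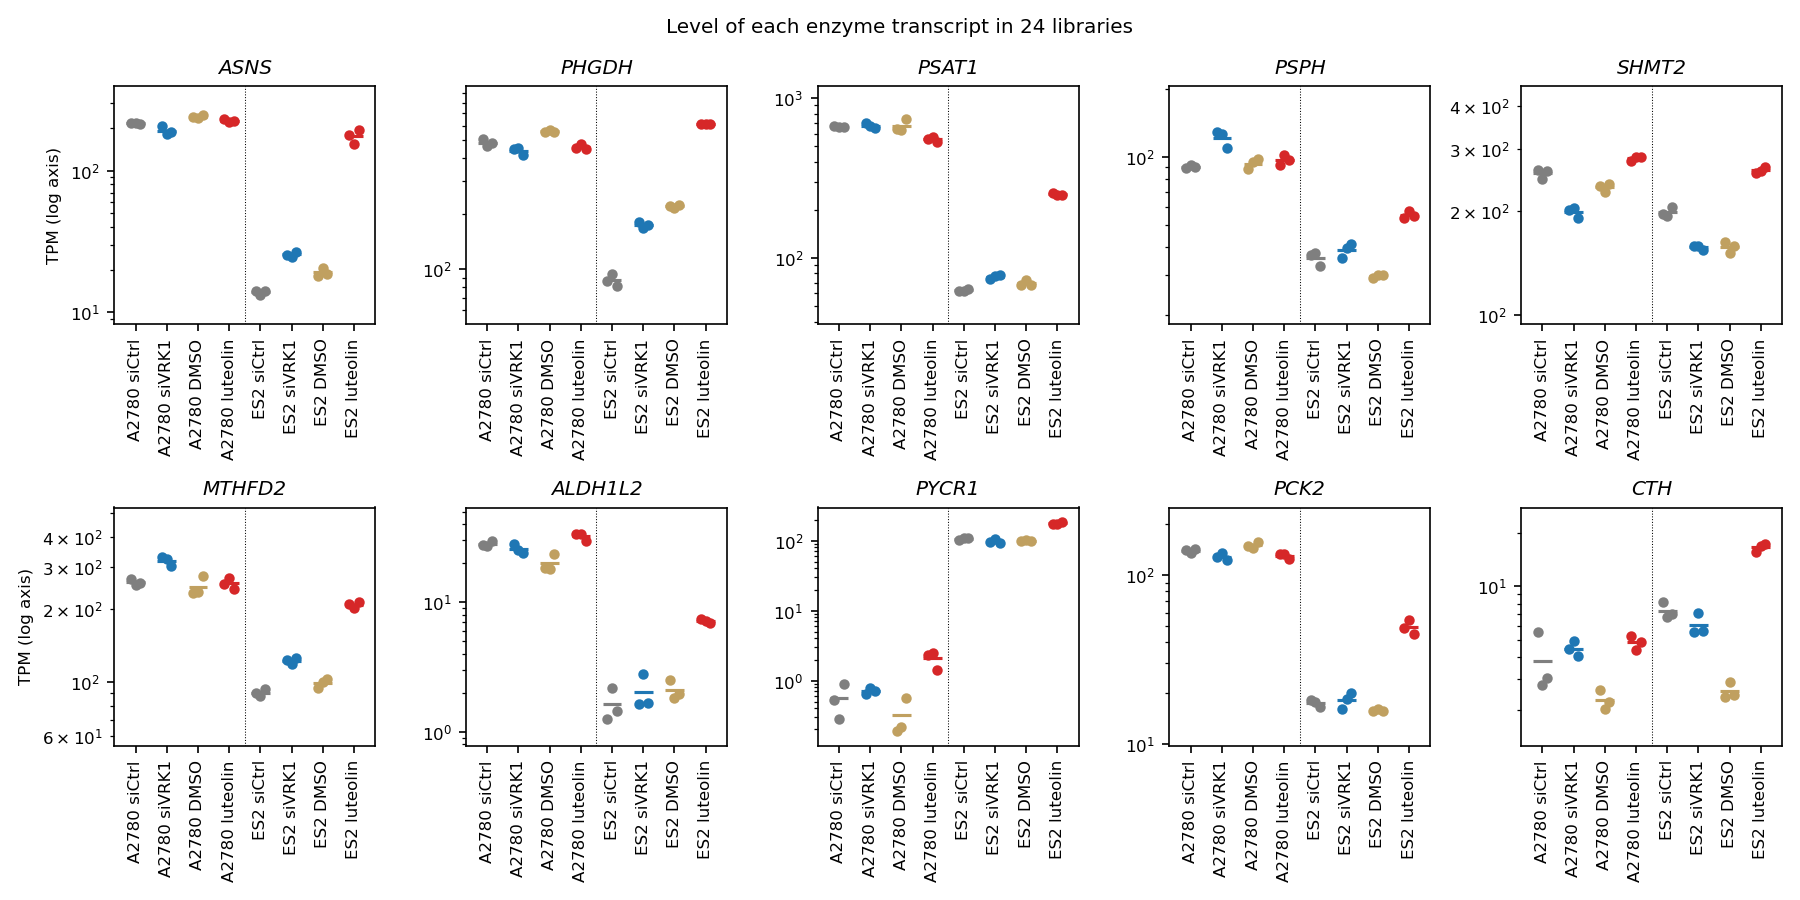
TPM of each enzyme in every library on a log axis, 1 panel per enzyme, with the 4 A2780 groups left of the dotted line and the 4 ES2 groups right of it; dots are libraries and bars are means of 3. The ES2 luteolin dots lie above the ES2 DMSO dots in all 10 panels, and ASNS goes from 18.0 to 20.6 TPM up to 155 to 192 TPM.

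Luteolin raised all 10 transcripts in ES2. ASNS rose the most, followed by CTH, PSAT1, PCK2 and PHGDH. No luteolin library overlapped a DMSO library for any of the 10, but the share of all genes without such overlap was not determined. The summed level of the 10 went from 714 ± 4.57 to 1815 ± 30.5 TPM. In this comparison 48.4% of the 12507 genes tested were called, 22.6% higher and 25.8% lower, and the median log2 change of all genes was -0.00. The median over the 10 enzymes was 1.45.

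ASNS was at 178, 155 and 192 TPM in the ES2 luteolin libraries, against the 18.0, 20.6 and 18.7 TPM of the DMSO libraries given above. The lowest luteolin library was well over the highest DMSO library. The log2 fold change was 3.13 ± 0.08 (limma, adjusted p = 7.75e-11), which ranks 7 among the 12507 genes tested. Its pseudogene ASNSP1 was listed at no more than 2.79 TPM in any library.

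The transcripts of all 3 serine synthesis enzymes rose. PHGDH, at 219, 216 and 223 TPM with DMSO, was at 611, 612 and 615 TPM with luteolin, a log2 change of 1.48 ± 0.05 (limma, adjusted p = 5.26e-10). PSAT1 was at 67.6, 72.7 and 67.5 TPM with DMSO and at 254, 249 and 249 TPM with luteolin, which is 3.62 times as much and a log2 change of 1.84 ± 0.04 (limma, adjusted p = 3.55e-11). The luteolin libraries of both enzymes were tightly grouped and far from the controls. PSPH moved least of the 3, from 29.03, 30.0 and 29.9 TPM to 53.9, 57.6 and 54.95 TPM, with a log2 change of 0.88 ± 0.06 (limma, adjusted p = 2.68e-07).

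The mitochondrial one-carbon enzymes rose by unequal amounts. MTHFD2, the oxidising enzyme known for its high level in many tumours and embryonic cells, was at 94.2, 100 and 103 TPM with DMSO and at 210, 202 and 214 TPM with luteolin, a log2 fold change of 1.07 ± 0.04. ALDH1L2 went from 2.50, 1.82 and 1.95 TPM to 7.46, 7.20 and 6.92 TPM, so it stayed a low-level transcript although its TPM was 3.45 times as high. SHMT2 rose the least of the 10, by 0.73 ± 0.04, from 163, 151 and 158 TPM to 257, 261 and 268 TPM.

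The enzymes of the neighbouring routes rose as well. CTH, the cysteine-releasing enzyme, was at 2.35, 2.88 and 2.44 TPM with DMSO and at 15.7, 16.9 and 17.5 TPM with luteolin, a log2 change of 2.32 ± 0.11 (limma, adjusted p = 8.61e-09). PCK2 went from 15.6, 16.1 and 15.6 TPM to 48.5, 54.2 and 44.9 TPM, or 1.58 ± 0.08 on the log2 scale. PYCR1, already abundant in ES2, rose from 100, 101 and 99.9 TPM to 174, 174 and 186 TPM, or 0.82 ± 0.05. CTH and PYCR1 show how starting level and response differed: the member with the second largest change was one of the 2 rarest.

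Marker lists also moved with luteolin in ES2. The 9 ovarian and epithelial markers summed to 952 to 993 TPM with DMSO and to 705 to 775 TPM with luteolin. The 6 fibroblast markers summed to 111 to 133 TPM with DMSO and to 15.9 to 20.9 TPM with luteolin, of which COL1A1, a collagen chain, went from a mean of 115 to 12.96 TPM. The 4 endothelial markers summed to 36.2 to 40.02 TPM with DMSO and 9.79 to 10.8 TPM with luteolin, most of it from CDH5. Among these, 1 of the 9 epithelial markers was at 0 in every ES2 library and none of the fibroblast and endothelial ones was, and their part in the result for the enzymes was not tested.

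In A2780 the same treatment split the enzymes. PYCR1 reached the 1 TPM filter only through its A2780 luteolin libraries, so it is described without a test and left out of the counts. Of the other 9, ALDH1L2, CTH and SHMT2 were higher with luteolin, PHGDH, PSAT1 and PCK2 were lower, and ASNS, PSPH and MTHFD2 did not pass the test. Here 65.5% of the 13012 genes tested were called, 45.6% higher and 19.9% lower, and the 3 higher and 3 lower of 9 lie near that background. The median gene rose by 0.22 on the log2 scale, and that shift depends on the scaling: of all calls, 69.7% were upward as deposited and 47.7% after median-of-ratios scaling. After median-of-ratios scaling 2 of the 9 were called higher and 6 lower, where 4004 of 12866 genes were called higher and 4387 lower. After quantile normalization it was 3 and 1, where 3697 of 13012 genes were called higher and 4256 lower.

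ASNS in A2780 was at 238, 234 and 247 TPM with DMSO and at 230, 221 and 225 TPM with luteolin. The groups did not overlap, but the difference was small, at -0.09 ± 0.05 (limma, adjusted p = 0.104). After median-of-ratios scaling it was -0.33 (limma, adjusted p = 1.09e-05), and after quantile normalization 0.0102 (limma, adjusted p = 0.85), so its direction depends on the scaling.

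The first enzymes of serine synthesis fell in A2780 where they had risen in ES2. PHGDH was at 557, 572 and 555 TPM with DMSO and at 457, 476 and 451 TPM with luteolin, a log2 change of -0.28 ± 0.04 (limma, adjusted p = 0.000106). PSAT1 was at 637, 631 and 744 TPM with DMSO and at 558, 573 and 529 TPM with luteolin, or -0.27 ± 0.06 (limma, adjusted p = 0.001). PCK2 fell by 0.20 ± 0.05 (limma, adjusted p = 0.00341), from 149, 145 and 158 TPM to 134, 133 and 125 TPM. With quantile normalization the PHGDH difference was -0.0414 (limma, adjusted p = 0.352) and the PSAT1 difference -0.0464 (limma, adjusted p = 0.498).

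The members that rose in A2780 came from the cysteine and one-carbon routes. CTH went from 2.60, 2.01 and 2.23 TPM to 5.24, 4.39 and 4.82 TPM, a log2 change of 0.83 ± 0.18 (limma, adjusted p = 0.00128), which did not pass after quantile normalization (adjusted p = 0.0679). ALDH1L2 went from 18.5, 18.1 and 23.6 TPM to 33.5, 33.7 and 30.0 TPM, or 0.67 ± 0.10. PYCR1 was at 2.31, 2.47 and 1.43 TPM with luteolin, above the near-zero control levels given earlier and still far below any ES2 library.

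SHMT2 rose by 0.27 ± 0.04, from 236, 227 and 239 TPM to 278, 285 and 285 TPM (limma, adjusted p = 6.45e-05). That increase equals the shift of the median gene to within 0.06. It did not pass after median-of-ratios scaling (0.0309, limma, adjusted p = 0.501), nor with protein-coding transcripts only (0.0352, limma, adjusted p = 0.392).

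**Figure D2:**
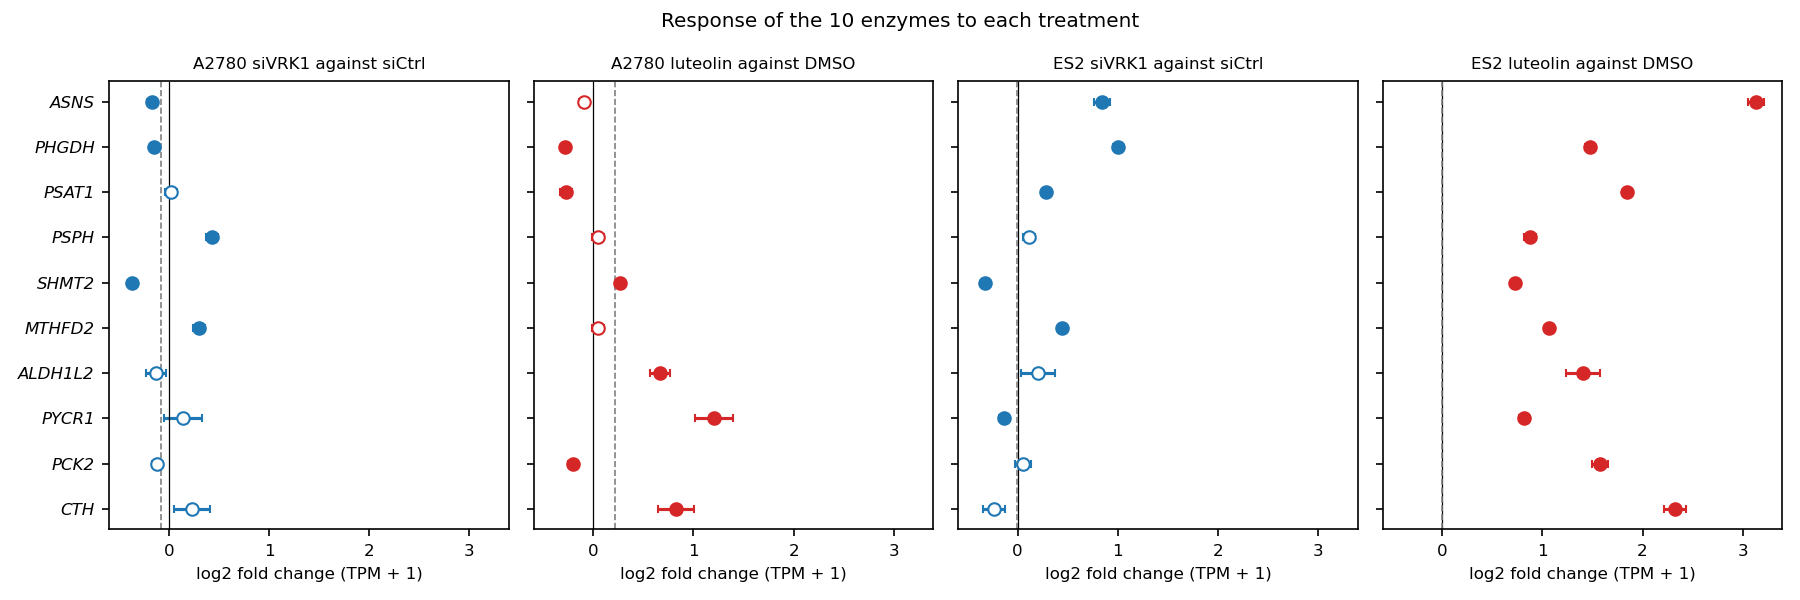
Log2 fold change of TPM + 1 of each enzyme (x axis) in the 4 treatment comparisons, 1 panel each; points are limma estimates, bars are 1 SE, filled points passed adjusted p under 0.05 and the dashed line is the median of all genes tested. All 10 points are filled and right of 0 in the ES2 luteolin panel, where ASNS is at 3.13, while the A2780 luteolin panel has 4 filled points right of 0, among them PYCR1, which is not counted as a test there, and 3 left of it.

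The test of the difference between the 2 responses to luteolin, PYCR1 left out, passed for the other 9 enzymes, all with the larger response in ES2. By comparison, 50.5% of the 14328 genes tested were called, 14.7% with the higher response in ES2 and 35.8% with the lower one, with a median of -0.20. After median-of-ratios scaling, 50.9% of all such calls were upward instead of 29.1%. The difference was 3.22 ± 0.09 for ASNS (limma, adjusted p = 2.7e-15), 2.12 for PSAT1, 1.78 for PCK2, 1.76 for PHGDH, 1.49 for CTH, 1.02 for MTHFD2, 0.83 for PSPH, 0.74 for ALDH1L2 and 0.46 for SHMT2. The ALDH1L2 difference did not pass with a pseudocount of 5 (0.203, limma, adjusted p = 0.151). For PYCR1, which was under 1 TPM in every A2780 DMSO library, the difference was -0.39 and is given without a test. Its sign turned with the pseudocount: it was -1.6 with a pseudocount of 0.1 and 0.386 with 5.

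Leaving out PYCR1, whose A2780 levels are near 0, the mean levels of the lines were closer with luteolin than with DMSO for 8 of 9 enzymes. The share of all genes whose levels also came closer was not determined, so this count is a description only. ASNS was 12.5 times as high in A2780 as in ES2 with DMSO and 1.29 times as high with luteolin. For PSAT1 the ratio went from 9.69 to 2.21, for PCK2 from 9.55 to 2.66, for ALDH1L2 from 9.61 to 4.50 and for MTHFD2 from 2.50 to 1.23. PHGDH crossed over, with a ratio of 2.56 with DMSO and 0.753 with luteolin. CTH is the exception: it was nearly level with DMSO, 1.12 times as high in ES2 as in A2780, and 3.46 times as high with luteolin.

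**Figure D3:**
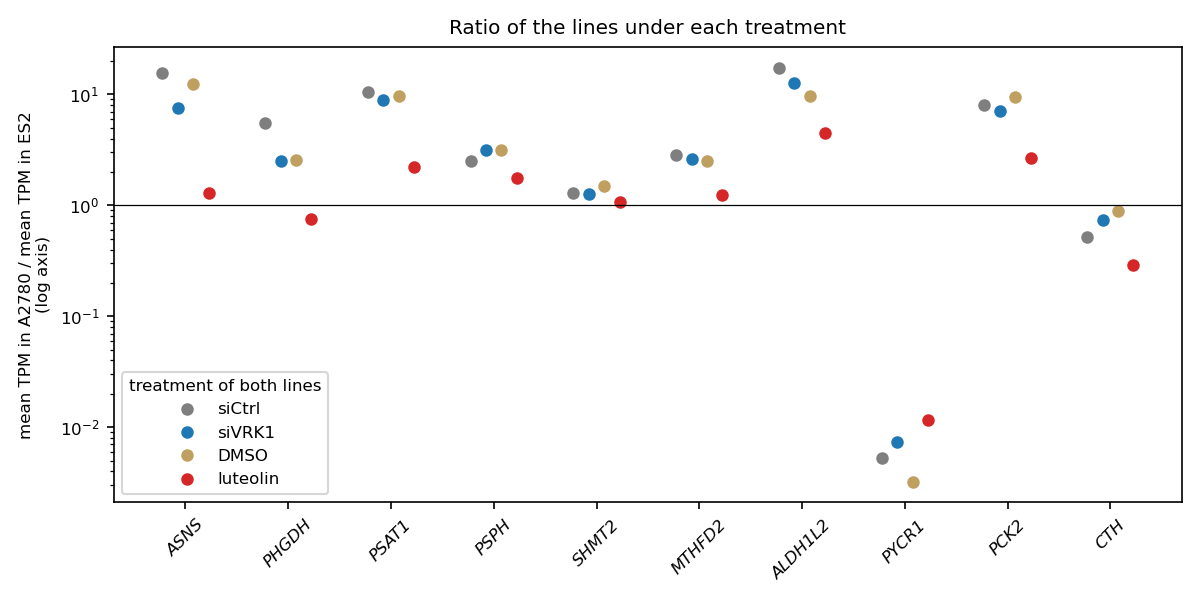
Mean TPM in A2780 divided by mean TPM in ES2 on a log axis for each enzyme, with 1 dot for each treatment given to both lines and a line at equal levels; no error is drawn. For ASNS the dots run from 15.6 with siCtrl to 1.29 with luteolin, and the PYCR1 dots all lie under 0.1.

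Knockdown of VRK1 had mixed effects. In ES2, PHGDH, ASNS, MTHFD2 and PSAT1 rose and SHMT2 and PYCR1 fell, the PYCR1 call being lost under several alternatives. PSPH, ALDH1L2, PCK2 and CTH did not pass the test. Of the 12507 genes tested, 54.8% were called, 26.8% higher and 28.0% lower, so the share of members called is near that of all genes.

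PHGDH with siCtrl was at 86.6, 94.0 and 80.9 TPM and with siVRK1 at 181, 168 and 175 TPM, a log2 change of 1.0 ± 0.05 (limma, adjusted p = 5.41e-09). The groups were far apart, although the siVRK1 libraries were still below the 216 to 223 TPM of the ES2 DMSO libraries. ASNS was at 14.1, 13.2 and 14.1 TPM with siCtrl and at 25.5, 24.6 and 26.8 TPM with siVRK1, or 0.84 ± 0.08 (limma, adjusted p = 1.52e-06). MTHFD2 went from 89.8, 87.5 and 93.7 TPM to 123, 118 and 126 TPM, or 0.44 ± 0.04.

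PSAT1 rose by 0.28 ± 0.04, from 62.1, 61.7 and 64.1 TPM to 73.7, 76.96 and 78.0 TPM. SHMT2 fell by 0.33 ± 0.04, from 195, 193 and 205 TPM to 158, 158 and 154 TPM. PYCR1 fell by 0.14 ± 0.05 (limma, adjusted p = 0.0327) with overlapping libraries, and it missed the threshold when any of 4 single libraries was left out, with an adjusted p of 0.0926 without siCtrl 2, 0.11 without siCtrl 3, 0.0984 without siVRK1 a, and 0.134 without siVRK1 3. It also missed after quantile normalization (-0.0726, limma, adjusted p = 0.267). The same held with no filter, only the groups compared, the other replicate block order or the leading transcript (limma, adjusted p = 0.0509 to 0.0611). Beside these results, the epithelial markers summed to 962 to 986 TPM with siCtrl and 636 to 675 TPM with siVRK1, and the fibroblast markers to 82.1 to 98.0 and 52.1 to 64.3 TPM, and their part was not tested.

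In A2780, siVRK1 raised PSPH and MTHFD2 and lowered SHMT2, ASNS and PHGDH. The background was 40.9% of 13012 genes called, 13.8% higher and 27.0% lower, and 33.8% of all calls were upward as deposited against 54.2% after median-of-ratios scaling. PSPH went from 89.5, 91.9 and 90.1 TPM to 129, 127 and 110 TPM, a log2 change of 0.43 ± 0.06 (limma, adjusted p = 0.000198). The pseudogene copy PSPHP1 was listed at up to 16.1 TPM in A2780 and at 0 in ES2, and the division of reads between the copies is uncertain. MTHFD2 rose by 0.30 ± 0.06, from 266, 253 and 258 TPM to 330, 323 and 302 TPM.

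SHMT2 fell by 0.37 ± 0.04 in A2780 (limma, adjusted p = 1.85e-05), from 262, 247 and 260.5 TPM to 200.4, 204 and 191 TPM. This enzyme was thus lower with siVRK1 than with siCtrl in both lines. In ES2, however, its siVRK1 libraries lay within the 151 to 163 TPM of the DMSO libraries. The ES2 call was also lost on the leading transcript (-0.0173, limma, adjusted p = 0.623). In A2780 the declines of ASNS, -0.17 ± 0.05 (limma, adjusted p = 0.00859), and PHGDH, -0.15 ± 0.04 (limma, adjusted p = 0.0188), were small. After median-of-ratios scaling they were -0.0607 (limma, adjusted p = 0.239) and -0.0331 (limma, adjusted p = 0.622). PHGDH also missed the threshold without siCtrl 1 (limma, adjusted p = 0.0892) and without siVRK1 3 (limma, adjusted p = 0.0824).

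The response to siVRK1 differed between the lines for 4 enzymes, against a background of 33.9% of 14328 genes called, 20.7% with the higher value in ES2 and 13.2% with the lower, a split of 61.0% upward calls that became 44.7% after median-of-ratios scaling. The difference was 1.14 ± 0.07 for PHGDH (limma, adjusted p = 7.77e-11), 1.02 ± 0.09 for ASNS (limma, adjusted p = 2.95e-08) and 0.26 for PSAT1 (limma, adjusted p = 0.00786). PSPH had the opposite sign, -0.32 (limma, adjusted p = 0.00939). The count depended on which transcripts were summed: it was 7 with protein-coding transcripts only and 9 with the leading transcript of each gene. Of all genes, 40.1% and 34.8% were called in those settings.

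Within ES2, the log2 response to luteolin was above that to siVRK1 for all 10 enzymes, each measured from its own control, where 51.9% of genes were called, 25.8% that way and 26.0% the other. The difference was largest for CTH, at 2.55, and ASNS, at 2.28, and smallest for PHGDH, at 0.48. In A2780, PYCR1 left out, the difference passed for 5 of 9 enzymes, upward for ALDH1L2 at 0.80 and SHMT2 at 0.64, and downward for PSPH at -0.37, PSAT1 at -0.30 and MTHFD2 at -0.25, where 57.6% of genes were called, 43.3% upward and 14.3% downward. Of these, MTHFD2 missed the threshold with the replicate block (limma, adjusted p = 0.0517), with no filter on low values (limma, adjusted p = 0.0608), with the leading transcript (-0.109, limma, adjusted p = 0.431) and without any of 7 single libraries: siCtrl 2 or 3, siVRK1 1 or 2, DMSO 3, and luteolin 1 or 3 (limma, adjusted p = 0.0512 to 0.0722). PSAT1 missed it after quantile normalization (-0.101, limma, adjusted p = 0.319), and PSPH (limma, adjusted p = 0.0633) and SHMT2 (0.0421, limma, adjusted p = 0.586) with the leading transcript. The median of all genes there was 0.30, and upward calls went from 75.2% to 45.1% after median-of-ratios scaling.

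Both kinds of control differed for several members, which bears on the starting level of each comparison. In ES2, siCtrl libraries had less PHGDH than DMSO libraries (-1.32 ± 0.05, limma, adjusted p = 6.82e-10) and less ASNS (-0.44, limma, adjusted p = 0.000357), and more CTH (1.22 ± 0.11, limma, adjusted p = 1.23e-06), SHMT2 (0.33) and PSPH (0.26). CTH was at 8.18, 6.70 and 6.99 TPM with siCtrl, against the 2.35 to 2.88 TPM of the DMSO libraries. PSAT1 (-0.14) and MTHFD2 (-0.13) were lower in siCtrl as well. The MTHFD2 call was lost with the leading transcript and without siCtrl 1, siCtrl 2, DMSO 2 or DMSO 3 (limma, adjusted p = 0.0605 to 0.0973). PSPH missed the threshold after quantile normalization (0.136, limma, adjusted p = 0.101). On the leading transcript, SHMT2 (0.031, limma, adjusted p = 0.369) and ASNS (0.242, limma, adjusted p = 0.19) missed it. In all, 3 members were higher and 4 lower, where 56.2% of genes were called, 34.7% higher and 21.5% lower. In A2780, 5 members differed, ALDH1L2 (0.49), CTH (0.50) and SHMT2 (0.13) upward and PHGDH (-0.21) and ASNS (-0.15) downward, where 58.1% of genes were called, 47.2% upward and 10.9% downward. CTH missed the threshold under 8 alternatives, with 0.256 (limma, adjusted p = 0.123) without siCtrl 1, which was at 5.55 TPM against 2.78 and 3.04 TPM in the other siCtrl libraries. SHMT2 was at -0.168 (limma, adjusted p = 0.00334) after median-of-ratios scaling, when 8 members and 49.6% of all genes differed. The difference between siRNA transfection and solvent cannot be told apart from other differences between these experiments.

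Which transcripts carried the level differed between members. PSAT1 had 2 transcripts in the table and PHGDH 34, and the type of each was taken from GENCODE release 29. For PHGDH the protein-coding ENST00000641023 carried 137.8 of 220 TPM in ES2 DMSO libraries and 419 of 613 TPM with luteolin, so it followed the sum. A retained-intron transcript, ENST00000496756, went from 61.9 to 140.1 TPM beside it. Transcripts of other types than protein-coding made up 25.3% to 45.1% of PHGDH in ES2 and 43.8% to 54.6% of MTHFD2, whose leading transcript, ENST00000470592, is a nonsense-mediated decay type.

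For SHMT2 in ES2, a minor transcript changed more than the leading one. In ES2 the leading ENST00000328923 was at 119 TPM with DMSO and at 132 TPM with luteolin, while ENST00000414700, also protein-coding, went from 11.6 ± 0.957 to 62.3 ± 9.60 TPM (SD, n = 3). The sum went from 157 to 262 TPM, so part of the rise lay on further transcripts. With siVRK1 in ES2 the minor transcript fell: the leading transcript was at 122 TPM with siCtrl and 120 TPM with siVRK1, and ENST00000414700 was at 38.7 ± 1.65 and 14.4 ± 1.77 TPM. On the leading transcript alone, the ES2 siVRK1 difference was -0.0173 (limma, adjusted p = 0.623), and the A2780 luteolin difference was -0.239 (limma, adjusted p = 0.000532) in place of a rise. Which of several overlapping transcripts a read is given to is estimated by the quantifier, so these splits are less certain than the sums.

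**Figure D4:**
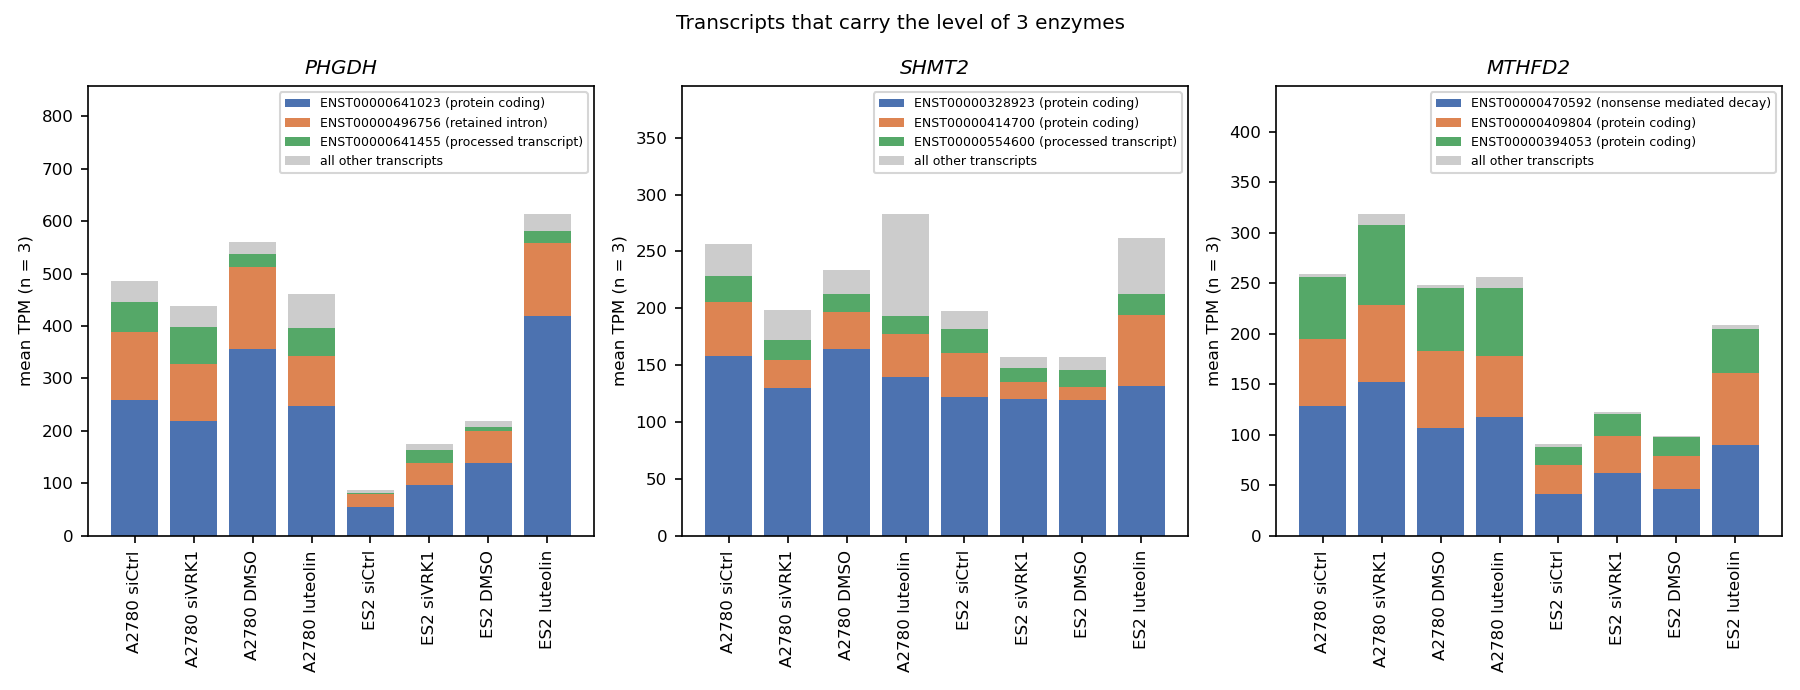
Mean TPM of PHGDH, SHMT2 and MTHFD2 in each of the 8 groups, stacked by transcript with the 3 most abundant in colour and all others in grey; bars are means of 3 libraries and no error is drawn. The blue part of SHMT2 is 119 TPM in the ES2 DMSO bar and 132 TPM in the ES2 luteolin bar, while the orange part goes from 11.6 to 62.3 TPM.

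ASNS is a textbook target of the ATF4 branch, and the region around its start holds a short element that C/EBP-ATF dimers are known to bind. The promoter windows of RefSeq, 300 bases from 250 before to 50 after a start, were searched on both strands for TGATGNAA, the core of that element. It occurred in 3.62% of 35116 windows and in 1 of the 7 windows of the 6 members that have one, namely ASNS, at 68 to 61 bases before the start. The site is shown because ASNS had the largest response of the 10. It lies on the minus strand at chr7:97872458-97872487 of GRCh38.p14, and 4 of the 17 transcripts of the gene in GENCODE release 29 have an exon over it. The capitals mark the match, and the match is a description of the letters only.
ASNS: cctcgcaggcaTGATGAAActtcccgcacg

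A list of 15 genes, called regulators here, holds ATF4, its partners, the kinases EIF2AK3 and EIF2AK4 and some stress-response outputs such as CHAC1 and SESN2. These 13 genes are called the ATF4 branch. The other 2, MYC and NFE2L2, were listed as other regulators of serine synthesis. This list too was chosen with earlier results of these data known. With luteolin, 12 of the 15 were higher and 1 was lower in ES2, with a median of 1.54, where 22.6% of all genes were called higher and 25.8% lower. Of the 13 genes of the ATF4 branch alone, 10 were higher and 1 was lower in ES2. In A2780, 15 of 15 were higher, where 45.6% of all genes were, with a median of 0.71, or 0.49 above the median of all genes. After median-of-ratios scaling 13 of 15 were higher in A2780, where 4004 of 12866 genes were. ATF4 itself went from 276 to 546 TPM in ES2, 0.99 ± 0.07 (limma, adjusted p = 4.33e-07), and from 589 to 763 TPM in A2780, 0.37 ± 0.04 (limma, adjusted p = 3e-06). ATF3, a stress-induced factor, rose by 2.83 in ES2 and 2.93 in A2780.

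In A2780, DDIT3 (2.49), which encodes the stress factor CHOP, and PPP1R15A (2.37), whose product restores translation after stress, rose beside ATF3. In ES2, CHAC1 (3.82), a glutathione-degrading enzyme, and NUPR1 (3.73) rose beside ATF3, and ATF5 fell by 0.37. CHAC1 and NUPR1 started from 0.72 and 1.27 TPM in ES2 DMSO libraries, against 62.9 and 68.4 TPM in A2780. In the baseline comparison 11 of 15 regulators were lower in ES2 controls and 2 were higher, against 49.4% and 34.3% of all genes. NUPR1 (-5.16), CHAC1 (-4.84) and ATF5 (-3.86) were among the lower ones, ATF4 was at 285 TPM in ES2 against 580 TPM in A2780, and PPP1R15A was higher in ES2 (1.97).

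With siVRK1 in ES2, 3 of the 15 were higher and 6 lower, against 26.8% and 28.0% of all genes. CEBPG, a partner of ATF4, rose by 0.53 and SESN2, a brake on mTORC1, by 0.25, while ATF4 fell by 0.28 ± 0.07 (limma, adjusted p = 0.0061), from 294 to 242 TPM, as did EIF2AK4 (-0.28), the amino acid sensor kinase, and NFE2L2 (-0.68). The part of ATF4 in the ES2 rises of PHGDH and ASNS with siVRK1 was not tested. In A2780, 3 were higher (CHAC1 0.47, SESN2 0.47, CEBPG 0.32) and 4 lower, among them NUPR1 (-1.03), EIF2AK3 (-0.52) and EIF2AK4 (-0.22), against 13.8% and 27.0% of all genes. That count became 6 and 2 after median-of-ratios scaling, where 2884 of 12866 genes were higher and 2439 lower.

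The other enzymes of these pathways, 56 in the list, did not move as one. In ES2 with luteolin, 16 of the 49 tested rose and 17 fell, with a median of -0.01, against 22.6% and 25.8% of all genes. Genes are named from this list only if they reached 5 TPM in the higher group, and others may have changed more. SDSL (1.91), a serine dehydratase relative, CBS (1.91), which makes the cystathionine that CTH uses and has a near-identical copy that makes its value uncertain, and GPT2 (1.02), the mitochondrial alanine aminotransferase, rose. GLUL (-0.64), glutamine synthetase, MTR (-0.60), methionine synthase, and DLD (-0.44), a subunit of the glycine cleavage system, fell.

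**Figure D5:**
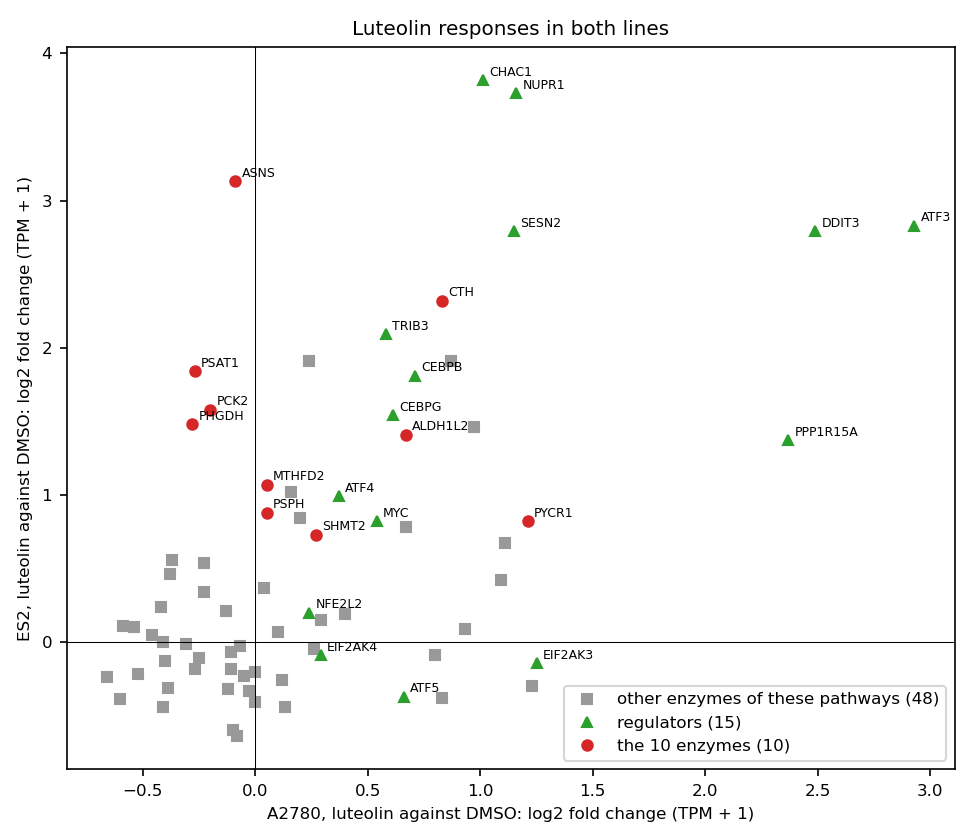
Log2 fold change with luteolin in A2780 (x axis) against ES2 (y axis) for the 10 enzymes (red), 15 regulators (green) and the 48 other pathway enzymes tested in both lines (grey); 1 point per gene, no error drawn. ASNS is at -0.09 and 3.13, and the 10 enzymes lie above 0 on the y axis but on both sides of 0 on the x axis.

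The direct relatives of the members gave other values in ES2 with luteolin. SHMT1, the cytosolic counterpart of SHMT2, was at -0.13 (limma, adjusted p = 0.116), and MTHFD1, the cytosolic trifunctional enzyme, was at -0.01 (limma, adjusted p = 0.874). MTHFD2L, the close relative of MTHFD2, was at 0.15 (limma, adjusted p = 0.261). MTHFD1L, the mitochondrial formate enzyme, rose by 0.37, and PYCR3 fell by 0.24. ALDH1L1 and PCK1, the cytosolic relatives of ALDH1L2 and PCK2, were not tested in either line, since ALDH1L1 was at most 0.439 TPM and PCK1 at most 0.015 TPM in any library.

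In A2780 with luteolin, 16 of 50 pathway enzymes rose and 18 fell, against 45.6% and 19.9% of all genes. After median-of-ratios scaling 10 rose and 30 fell, where 4004 of 12866 genes rose and 4387 fell. GCLM, which limits glutathione synthesis, rose by 1.23, the serine racemase SRR by 1.11 and MAT2A, which makes S-adenosylmethionine, by 1.09. PYCR3 (-0.66), the purine enzyme PAICS (-0.60) and the folate enzyme MTHFS (-0.59) fell. SHMT1 (-0.40) and MTHFD1 (-0.31) fell too.

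With siVRK1 in ES2, 14 of 49 rose and 12 fell, against 26.8% and 28.0% of all genes. Among those that rose were TYMS (1.55), which uses one-carbon units to make thymidylate for DNA synthesis, and SRR (0.74). TYMS was at 143 to 153 TPM with siCtrl and 422 to 447 TPM with siVRK1. The ES2 DMSO libraries had 323 to 348 TPM, so the size of its rise depends on which control is used. GLUD1 (-1.22), glutamate dehydrogenase, ALDH4A1 (-0.81) and SDSL (-0.77) fell. MTHFD1 rose by 0.60. In A2780, 7 of 50 rose and 17 fell, against 13.8% and 27.0% of all genes. After median-of-ratios scaling 12 rose and 13 fell, where 2884 of 12866 genes rose and 2439 fell. SRR (0.47) and ASS1 (0.40) were among those up and GLUD1 (-0.70), SHMT1 (-0.56) and MTHFS (-0.54) were down. In the baseline comparison, 13 of 51 were higher in ES2 and 26 lower, against 34.3% and 49.4% of all genes. GGH (1.39), GCLM (1.11) and OAT (1.06) were higher, and CBS (-4.75) and GLDC (-4.31) were lower. ASS1, the arginine-making enzyme, was at 26.2 TPM in A2780 controls and 0.038 TPM in ES2 controls, a log2 difference of -4.70. Its ES2 control level is below the 1 TPM filter, so it is described without a test. The count of 26 lower includes it.

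Genes with a pattern like that of ASNS over the 4 treatment comparisons were ranked among 10381 genes by the root-mean-square difference of their log2 fold changes. SLC6A9, a glycine transporter, came first at 0.53, then LCP1 at 0.65, CBS and NDUFA4L2 at 0.66 and ISCA1P4 at 0.68. The nearest members were PSAT1 at 0.72, PHGDH at 0.83 and CTH at 0.84, and the furthest was PYCR1 at 1.42. For PHGDH the closest were CBSL, the near-identical copy of CBS, at 0.17, FZD8 at 0.22, DDX10 at 0.23, RDM1 at 0.32 and LINC00869 at 0.33, with PSAT1 at 0.41 as the nearest member. The ranking is a description over 4 differences per gene.

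The spread over the 12 libraries of a line differed between the lines. ASNS varied 1.35-fold from the lowest to the highest A2780 library, 182 to 247 TPM, and 14.5-fold in ES2, 13.2 to 192 TPM. PSAT1 was the most abundant member in all 4 A2780 groups, whereas in ES2 the first place went to SHMT2 with siCtrl and to PHGDH in the other 3 groups.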

How the data were processed

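Per the labels' protocols, a column kit was used for RNA and a company prepared and sequenced the libraries. Reads were checked with FastQC and quantified with kallisto on hg19, per the submitters' processing notes, which give no versions. Not given in the sources used here is the transcript set. The table the authors deposited holds TPM per transcript and library, scaled to 1000000, so sequencing depth is unknown and no counting interval can be given. Of 193845 lines, 1958 repeat a transcript with identical values, so 191887 transcripts were each used once and summed per symbol. Transcripts without a symbol or with several symbols were left out (0.514% to 1.03% of TPM). Groups were taken from the sample titles, which conflict with other labels: the cell line and source fields count upward from sample to sample within each line, and the treatment field does so within the siVRK1 groups. In the ES2 siVRK1 group 2 columns share a name and are called a and b. They differ as much as other replicates do.

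Genes with at least 1 TPM in at least 3 libraries of a fit were tested on log2(TPM + 1) with limma 3.58.1 (trend, R 4.3.3), with the 12 libraries of a line for comparisons within it and all 24 for comparisons between lines. Benjamini-Hochberg adjustment ran over all genes tested. The script was tested on simulated data. Alternatives were other pseudocounts, filters, scalings (median-of-ratios, quantile), transcript choices, a replicate block and each library left out. Transcript types are from GENCODE release 29. All 10 enzymes are described. From the 56 pathway enzymes and 15 regulators, up to 3 genes per direction with the largest change, no overlap and at least 5 TPM were named, besides direct relatives and ATF4; a few genes that the rule picks are not reported here. The members and lists were chosen with earlier results of these data known. The ranking by likeness used genes of at least 5 TPM in 1 group.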

Additional observations from a re-analysis of the deposited data

Results flagged for a closer look

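The response to luteolin differed between the lines for 9 enzymes by the interaction test in limma on all 24 libraries, the response in ES2 minus that in A2780 on the log2 scale. The values were 3.22 for ASNS, 2.12 for PSAT1, 1.78 for PCK2, 1.76 for PHGDH, 1.49 for CTH, 1.02 for MTHFD2, 0.83 for PSPH, 0.74 for ALDH1L2 and 0.46 for SHMT2. For PHGDH, PSAT1 and PCK2 the responses themselves had opposite signs as deposited, lower with luteolin in A2780 and higher in ES2.

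The response to siVRK1 differed between the lines for 4 enzymes by the same test. The values were 1.14 for PHGDH, 1.02 for ASNS, 0.26 for PSAT1 and -0.32 for PSPH. PHGDH and ASNS rose in ES2 and fell slightly in A2780, and the A2780 declines did not pass after median-of-ratios scaling.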

How the results depend on the processing

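All 10 enzymes were called higher with luteolin in ES2 under every alternative run. In the baseline comparison, PYCR1 left out because no test of it is given, the other 9 were called under every alternative run. Between the A2780 controls 8 enzymes were called after median-of-ratios scaling, where 49.6% of all genes were, against 5 as reported. The count was 3 without siCtrl 1 or without DMSO 2, where 50.7% and 49.3% of all genes were called. With the leading transcript only, PYCR1 left out, 3 were called in place of 5 for luteolin against siVRK1 in A2780 (52.1% of all genes). Between the ES2 controls 4 were called in place of 7 (53.8% of all genes). For the difference of the siVRK1 responses it was 9 in place of 4 (34.8% of all genes). Protein-coding transcripts only, chosen after seeing the data, gave 7 there (40.1% of all genes).

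Directions that turned were these. In A2780 with luteolin, median-of-ratios scaling gave -0.193 for MTHFD2 and -0.187 for PSPH, quantile normalization 0.0102 for ASNS, protein-coding transcripts -0.107 for MTHFD2 and the leading transcript -0.239 for SHMT2. Between the A2780 controls, median-of-ratios scaling gave -0.235 for MTHFD2 and -0.168 for SHMT2, quantile normalization 0.035 for PSAT1 and -0.00298 for PYCR1, protein-coding transcripts -0.0997 for MTHFD2 and the leading transcript -0.06 for SHMT2. For luteolin against siVRK1 in A2780, ASNS was at -0.27 (median-of-ratios), -0.203 (leading transcript) and -0.129 (protein-coding), and PHGDH at 0.0582 (quantile). Between the ES2 controls, ASNS was at 0.242 (leading transcript) and PYCR1 at -0.0446 (quantile). For the differences between lines, SHMT2 with siVRK1 was at -0.0714 (median-of-ratios), and PYCR1 with luteolin at 0.386 (pseudocount 5), 0.0859 (quantile) and 0.586 (leading transcript). With each library left out in turn, PSAT1 with siVRK1 in A2780 ranged from -0.00308 (without siVRK1 1) to 0.0475, PSAT1 between the A2780 controls from -0.0555 to 0.0631 (without DMSO 3), and PCK2 with siVRK1 in ES2 from -0.0148 (without siVRK1 3) to 0.129. The cause was not tested.

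Deviations of same-numbered libraries from their group means correlated at -0.149 to 0.0572 in A2780 and -0.0675 to 0.0992 in ES2. For libraries of other numbers the range was -0.094 to 0.15 in A2780 and -0.0906 to 0.081 in ES2. The labels do not state whether the numbers pair the libraries. These correlations cannot settle it, because deviations within a group are tied to each other through their mean. With the replicate number as a block, 10 enzymes were again called for ES2 with luteolin. There 2787 or 2764 of 12507 genes were called higher, by the order given to siVRK1 a and b.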
